A study of Mus musculus with 8 samples.

Results

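The proteasome genes described here are the rows of the count table whose symbol starts with Psm, a letter from a to g and a number. The table held 51 such symbols among 41730 rows, and 43 of them had 10 or more counts in at least 4 libraries and were tested. The symbols of 2 of the 43, Psmc3ip and Psme3ip1, match the pattern although the genes encode no proteasome subunit. Psmc3ip acts in homologous recombination and Psme3ip1 binds the activator encoded by Psme3. The other 41 encode subunits, activators, an inhibitor and assembly factors, and they are called proteasome genes below.

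CD8+ T cells of OT-I mice, in which a T cell receptor transgene gives specificity for SIINFEKL, a peptide of ovalbumin, were sorted by flow cytometry after culture with dendritic cells. The dendritic cells had been grown from bone marrow and loaded with the peptide. Control cultures received the solvent DMSO (4 libraries, replicates 1 to 4), and the others RGX-104 at 2 µM (4 libraries, replicates 5 to 8). RGX-104 is a small molecule that activates liver X receptors, nuclear receptors for oxysterols. All T cells carried the OT-I genotype, and the labels used here give no age, sex or length of culture. The agonist was present while both cell types were in culture, so direct effects on T cells and effects through dendritic cells cannot be told apart. Whether each library had its own culture or mouse is not in the labels, and p-values therefore measure only how these samples vary, which can be technical variation.

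The proteasome degrades proteins tagged with ubiquitin. Its core particle is a barrel of stacked rings, in which alpha subunits form the gate and beta subunits line the chamber, with the protease sites on the products of Psmb5, Psmb6 and Psmb7. A regulatory particle caps the barrel, and its base ATPases (Psmc genes) unfold the substrate while its other subunits (Psmd genes) bind ubiquitin chains and remove them. In cells exposed to interferon gamma, and in many lymphocytes, Psmb8, Psmb9 and Psmb10 replace Psmb5, Psmb6 and Psmb7 to form the immunoproteasome, which favours peptides that bind MHC class I. T cells that divide after antigen contact depend on proteasome activity.

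Total counts per library ranged from 13144704 to 15966972, and the 43 tested genes held 1.22% ± 0.00841 of the control counts and 1.22% ± 0.0322 of those under RGX-104 (mean ± SD, n = 4 per group). Levels are given as CPM, reads of a gene scaled to a common library size by TMM. The libraries read the 3′ ends of transcripts, so CPM were not divided by gene length and levels of different genes are not ranked. The agonist's targets responded: Abca1, a cholesterol exporter, was at 8.13 ± 0.569 CPM in control and 85.2 ± 5.42 CPM in RGX-104. The summed level of 9 CD8 T cell markers was 1799 to 1841 CPM in control and 2140 to 2235 CPM in RGX-104, without overlap. edgeR called 4 of the 9 higher (Cd8a, Cd8b1, Lat and Thy1), against 0.888% of all tested genes. An unadjusted p under 0.05 was found for 7 of the 9, against 13.8% of all tested genes. All 9 log2 fold changes were positive, from 0.03 for Lck to 0.52 for Cd8a. The summed level of 18 dendritic cell and macrophage markers was 122 to 136 CPM in control and 124 to 145 CPM in RGX-104. Most of that sum came from Cst3 and Ctss. Of the 18, 11 were tested and none was called by edgeR, nor by DESeq2 among the 8 to which it gave an adjusted p, but 2 had an unadjusted p under 0.05, both with lower estimates in RGX-104, and the median log2 fold change of the 11 was -0.22. These 2 were the dendritic cell genes Ccl22 (-1.18 ± 0.41, groups not overlapping) and Fscn1 (-0.83 ± 0.32). Both were at low levels, with means of 3.66 and 4.23 CPM in control and 1.61 and 2.37 CPM in RGX-104. The estimates of the 11 were split, with 5 above 0 and 6 below. Cst3 and Ctss were among those above 0, at 0.02 and 0.19. H2-Aa, H2-Ab1 and H2-Eb1 were listed at 0 in all libraries, and whether their RNA was absent was not tested. The part of these markers in the results below was not tested. In a bulk sample, fewer cells of a type and less RNA per cell cannot be told apart.

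The RNA of the 41 tested proteasome genes hardly differed between control and RGX-104. Psmb6, Psmb8, Psmb9, Psmg1, Psmd10 and Psme2b could not be read from these counts. Psmb2, a beta subunit of the core without protease activity, was the single proteasome gene that edgeR called, at 0.808 of its control level. No proteasome gene was called higher. A gene not called is not thereby unchanged. The unadjusted 95% intervals of Psma5, Psmd12 and Psme3 lay above 0, and those of Psma1 and Psmc6 below 0. Across the 41 genes, log2 fold changes of RGX-104 over control ran from -0.31 to 0.21, with a median of -0.01 against 0.00 over all 12162 genes tested. The sum over the 41 genes was 12164 ± 177 CPM in control and 12135 ± 319 CPM in RGX-104 (mean ± SD, n = 4 per group), and the groups overlapped.

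The test was edgeR's quasi-likelihood test with Benjamini-Hochberg adjustment over all genes tested, and a gene was called at an adjusted p under 0.05. By this rule 1 of the 43 genes was lower and 0 were higher, against 1.78% of all tested genes called lower, 0.888% called higher and 2.66% called in either direction. Unadjusted p-values were under 0.05 for 6 of the 43 (13.95%), 3 in each direction, against 13.8% of all tested genes. A mean level in the same range as the 43 (25.8 to 881 CPM) was found for 5330 genes. Of these, 4.30% were called and 20.02% had an unadjusted p under 0.05. The 43 lay near the shares over all genes. With 1 called gene and 6 with an unadjusted p under 0.05, the numbers are too small to set the 43 apart from genes at similar levels. The same holds for groups without overlap in CPM, found for 6 of the 43 (13.95%) against 11.9% of those genes. DESeq2 called 2 of the 43 (Psmb2 and Psma1, both lower), against 4.61% of the 10511 genes to which it gave an adjusted p, or 2.81% called lower.

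The 95% intervals show how closely the differences between these samples were estimated. Whether libraries came from separate cultures is not in the labels, so the intervals do not bound an effect of RGX-104 in other cultures. The standard error of the log2 fold change had a median of 0.06 over the 41 genes. That median was 0.15 over all tested genes and 0.08 among the genes in the same range of levels. The 95% interval of the fold change lay within a factor of 1.25 in either direction for 38 of the 40 proteasome genes that were not called. The exceptions were Psma5, whose interval reached 0.38 on the log2 scale, and Psmd9, whose interval reached -0.32. A factor of 1.25 is wide enough to hold the estimate of the called gene Psmb2 (fold 0.808), though not its interval (from 0.732). Lying within it therefore does not mean that a gene was unchanged. The median absolute log2 fold change was 0.06 over the 43 genes and 0.14 over all tested genes. Among the genes in the same range of levels, it was 0.09.

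**Figure D1:**
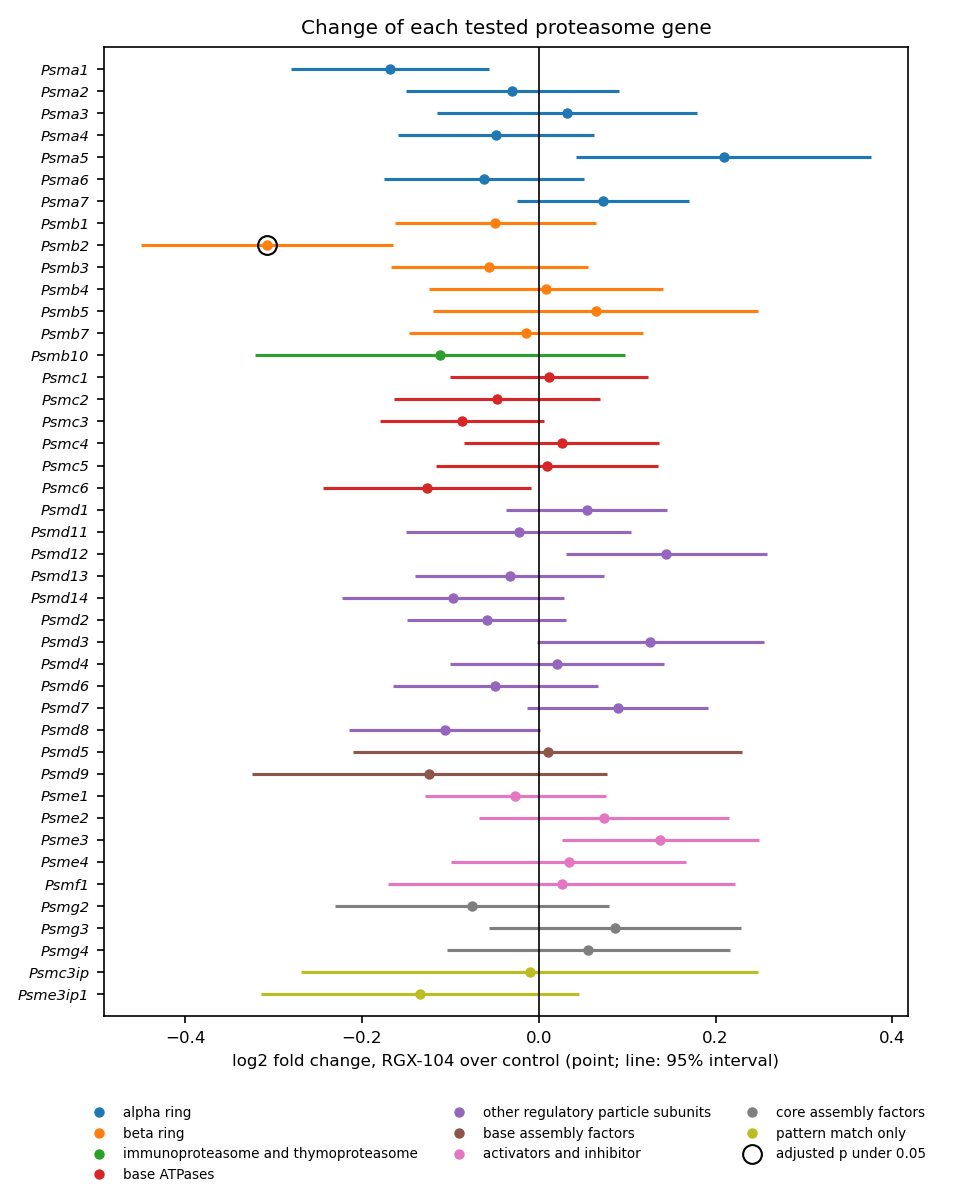
Log2 fold change of RGX-104 over control (x axis) for each of the 43 tested genes, with points for the estimate, lines for the 95% interval and colours for the subgroup. The ring marks Psmb2 at -0.31, the single called gene, and most other intervals cross 0.

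**Figure D2:**
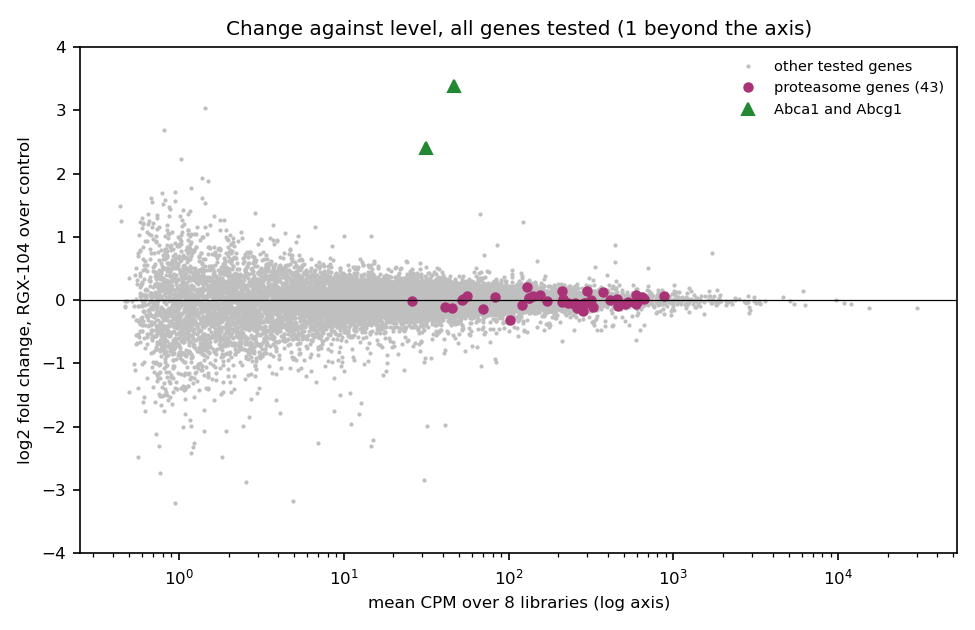
Log2 fold change (y axis) against mean CPM over 8 libraries (log x axis) for all 12162 genes tested, with the 43 proteasome rows in purple and the agonist targets Abca1 and Abcg1 as green triangles. The proteasome rows lie between -0.31 and 0.21, while Abca1 lies at 3.39 and 1 gene falls outside the axis.

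The constitutive core comprised 13 tested genes, 7 of the alpha ring and 6 of the beta ring. None was called higher by edgeR and 1 was called lower. Of the 13, 5 had a positive and 8 a negative log2 fold change (median -0.03). Psmb2 (chromosome 4, 126677637 to 126709715, GRCm38.p6) was at 106, 120.3, 111 and 116 CPM in control replicates 1 to 4. In RGX-104 replicates 5 to 8 it was at 93.6, 95.4, 84.4 and 93.8 CPM. Every RGX-104 library lay below every control library, with replicate 7 the lowest. The log2 fold change was -0.31 ± 0.07 (± SE; 95% interval -0.45 to -0.16; edgeR adjusted p = 0.0144). The call was lost without control replicate 2 (adjusted p = 0.0586) and without RGX-104 replicate 7 (adjusted p = 0.0701), with log2 fold changes of -0.28 and -0.27. Over all alternatives the adjusted p ran from 0.000792 to 0.0701.

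Psma1, an alpha ring subunit (chromosome 7, 114264550 to 114276116), was at 279.6, 309.9, 294 and 320.2 CPM in control. In RGX-104 it was at 257, 277, 264 and 273 CPM, and the groups did not overlap. Its log2 fold change was -0.17 ± 0.05, which edgeR did not call (adjusted p = 0.121) and DESeq2 did (adjusted p = 0.0447). Over the alternatives other than leaving out a library, the adjusted p of Psma1 ran from 0.0447 to 0.178.

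Psma5, a further alpha ring subunit (chromosome 3, 108256926 to 108279952), had the most positive log2 fold change of the 41 genes. It was at 109, 112, 124 and 139 CPM in control and at 132, 136, 129.5 and 160.5 CPM in RGX-104. Control replicate 4 lay above 3 of the 4 RGX-104 libraries. The log2 fold change was 0.21 ± 0.08, with an edgeR adjusted p of 0.224. The other alpha ring genes, Psma2, Psma3, Psma4, Psma6 and Psma7, had log2 fold changes of -0.03, 0.03, -0.05, -0.06 and 0.07. Psma7 was at 859 ± 52.0 CPM in control and 903 ± 24.3 CPM in RGX-104. Psma8, the alpha subunit of the germ cell proteasome, had between 0 and 16 counts per library and was not tested.

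Of the catalytic beta subunits, Psmb5 and Psmb7 could be measured. Psmb5, the chymotrypsin-like subunit (chromosome 14, 54614120 to 54617995), was at 52.7, 57.9, 50.3 and 56.6 CPM in control and at 59.2, 58.5, 50.6 and 59.2 CPM in RGX-104. Psmb7, the trypsin-like subunit (chromosome 2, 38588046 to 38643952), was at 185, 155, 166 and 177 CPM in control and at 160.4, 179, 166 and 171 CPM in RGX-104. The groups overlapped for both genes. Part of the Psmb7 exons lies opposite exons of Nek6, and Psmb5 shares exon sequence with Mir686. The log2 fold change was 0.06 ± 0.09 for Psmb5 (95% interval -0.12 to 0.25) and -0.01 ± 0.06 for Psmb7 (95% interval -0.15 to 0.12). Psmb1, Psmb3 and Psmb4, which like Psmb2 have no protease site of their own, had log2 fold changes of -0.05, -0.06 and 0.01.

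The immunoproteasome could be read from 1 gene only. Psmb8, Psmb9 and Psmb6 were listed at 0 in all 8 libraries, as were Psmg1, Psmd10 and Psme2b. For each of these 6 genes the table holds further rows with a number appended to the symbol, which were at 0 as well. Of the 45 Psm symbols without such a repeat, 1 was at 0 in all libraries. Over the whole table, 1310 of 1729 symbols with a repeat (75.8%) were at 0 in all libraries, against 47.4% of 37662 symbols without one. A listing of 0 for these 6 genes was therefore not read as absence of RNA, and no limit is given for them. Psmb11, the thymus-specific catalytic subunit, has no repeat and was at 0 in all 8 libraries, where 3 counts would correspond to 0.189 to 0.229 CPM. That limit covers counting error only.

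Psmb10, the immunoproteasome counterpart of Psmb7 (chromosome 8, 105935728 to 105938392), was at 41.5, 44.5, 40.1 and 44.9 CPM in control. In RGX-104 it was at 36.7, 35.9, 43.05 and 42.5 CPM, with replicates 5 and 6 below the control range and replicates 7 and 8 within it. The log2 fold change was -0.11 ± 0.10 (95% interval -0.32 to 0.10; edgeR adjusted p = 0.687). Psmb10 CPM as a percentage of Psmb7 CPM in the same library was 22.4, 28.7, 24.1 and 25.3% in control and 22.9, 20.02, 25.9 and 24.8% in RGX-104. These percentages overlapped between the groups, and they describe reads at transcript ends, not amounts of protein.

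**Figure D3:**
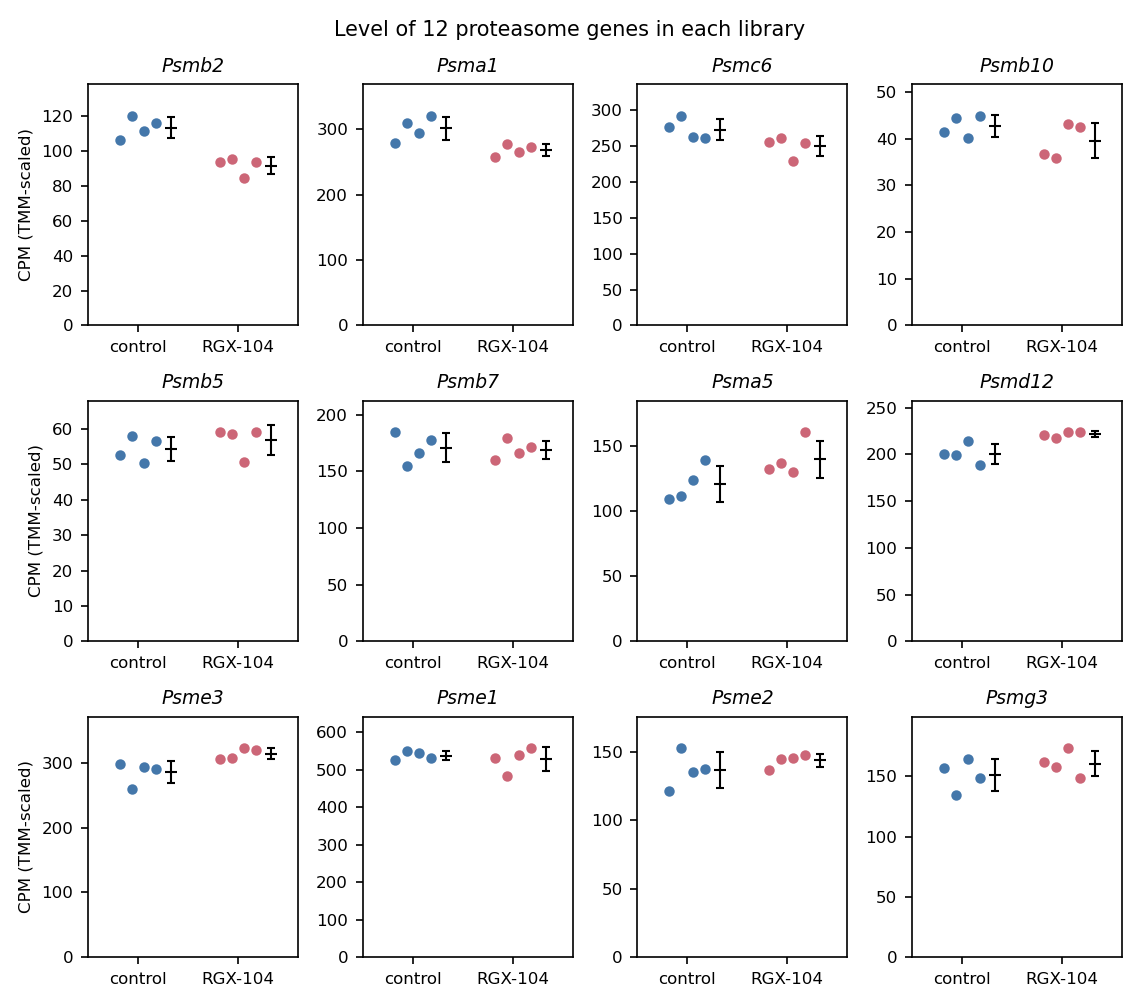
CPM (y axis, from 0) of 12 proteasome genes in the 4 control libraries (blue) and the 4 RGX-104 libraries (red), with the mean and SD of each group in black. Psmb2, Psma1, Psmd12 and Psme3 show no overlap between the groups, and the other 8 genes overlap.

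The 17 regulatory particle genes with a Psm symbol were all tested, 6 base ATPases and 11 others. Adrm1, a regulatory particle gene without a Psm symbol, is given below with the partners. None of the 17 was called by edgeR or DESeq2, with 2 at an unadjusted p under 0.05. Their log2 fold changes ran from -0.13 to 0.14, with 8 positive and 9 negative values and a median of -0.02. Psmd12, a lid subunit that holds the lid together (chromosome 11, 107479528 to 107498036), was at 200.1, 199, 214 and 189 CPM in control. It was at 221, 218, 224 and 224 CPM in RGX-104, and all 4 values lay above the control range. The log2 fold change was 0.14 ± 0.05, and edgeR's adjusted p was 0.217.

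Psmc6, a base ATPase (chromosome 14, 45329823 to 45349074), was at 276, 292, 263 and 261.1 CPM in control and at 256, 261.3, 229 and 254 CPM in RGX-104. RGX-104 replicate 6 lay just above the lowest control library. The log2 fold change was -0.13 ± 0.06 (edgeR adjusted p = 0.320). Psmc3, another ATPase, was at 481, 470.3, 476 and 471 CPM in control and at 443, 435, 458 and 453 CPM in RGX-104. Exons of Psmc3 overlap those of Slc39a13 on the other strand. The groups did not overlap, and the log2 fold change was -0.09 ± 0.04 (edgeR adjusted p = 0.400). Psmc1, Psmc2, Psmc4 and Psmc5 had log2 fold changes of 0.01, -0.05, 0.03 and 0.01.

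Psmd2, which encodes a large scaffold of the base, was at 606, 615, 595 and 594 CPM in control. In RGX-104 it was at 588, 559, 588 and 578 CPM, below every control library, with a log2 fold change of -0.06 ± 0.04 (edgeR adjusted p = 0.593). Psmd1, the other large scaffold, had a log2 fold change of 0.05 and the ubiquitin receptor Psmd4 one of 0.02. Psmd14, the deubiquitinase that strips ubiquitin from substrates, went from 278 ± 15.7 CPM to 260.3 ± 21.1 CPM in the means, with overlapping groups and a log2 fold change of -0.10 ± 0.06. The remaining genes, Psmd3, Psmd6, Psmd7, Psmd8, Psmd11 and Psmd13, ran from -0.11 for Psmd8 to 0.13 for Psmd3.

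Groups did not overlap in CPM for 6 of the 43 genes (13.95%), against 8.20% of all tested genes and 11.9% of genes in the same range of levels. Psmd12 and Psme3 were higher in RGX-104, against 3.88% of all tested genes. Psmb2, Psma1, Psmc3 and Psmd2 were lower, against 4.32%. Of these 6 genes, edgeR called Psmb2 alone.

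The 10 tested assembly factors, activators and inhibitor gave no called gene by edgeR or DESeq2, with 1 (Psme3) at an unadjusted p under 0.05. Psme3 encodes a nuclear activator ring that opens the core without ubiquitin (chromosome 11, 101316213 to 101323537). It was at 298, 259.7, 294 and 289.8 CPM in control and at 306, 307, 323 and 319.8 CPM in RGX-104. The RGX-104 libraries all lay above the control range, and the log2 fold change was 0.14 ± 0.05 (edgeR adjusted p = 0.232).

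Psme1 and Psme2 encode the partner subunits of the activator that interferon gamma induces. Psme1 was at 525, 549.8, 545 and 529 CPM in control and at 530.0, 482, 539 and 557.5 CPM in RGX-104, with a log2 fold change of -0.03 ± 0.05. Psme2 was at 121, 153, 135 and 137 CPM in control and at 137, 145, 145 and 148 CPM in RGX-104, with a log2 fold change of 0.07 ± 0.07. Both overlapped between the groups. Psme2b is a close copy of Psme2 and is listed at 0, so the value of Psme2 is uncertain. Psme4 and Psmf1, which encode another activator and an inhibitor of the core, each had a log2 fold change of 0.03.

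Psmg3, an assembly chaperone of the alpha ring (chromosome 5, 139823613 to 139826894), was at 157, 134, 164 and 148 CPM in control and at 162, 157, 173 and 148 CPM in RGX-104. Its log2 fold change was 0.09 ± 0.07, and its exons overlap Gm26938. Psmg2 and Psmg4, which act at the same step, had log2 fold changes of -0.08 and 0.06. Psmd9, an assembly factor of the base (chromosome 5, 123228190 to 123250126), was at 46.2, 47.8, 44.9 and 49.9 CPM in control and at 38.9, 48.1, 45.3 and 40.8 CPM in RGX-104. RGX-104 replicates 5 and 8 lay below the control range, and the log2 fold change was -0.12 ± 0.10. Psmd9 exons lie opposite those of Gm26745. Psmd5, which acts on the same structure, was at 51.8 ± 1.26 CPM in control and 52.1 ± 9.11 CPM in RGX-104, the widest relative spread of the 41 genes in the treated group. Of the genes kept apart, Psme3ip1 was at 73.8, 62.6, 80.1 and 78.0 CPM in control and at 65.7, 72.8, 62.6 and 67.3 CPM in RGX-104 (log2 fold change -0.13 ± 0.09), and Psmc3ip had a log2 fold change of -0.01.

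The summed levels of the tested Psm genes were close between the groups for both large particles. The 13 core genes summed to 4098 ± 92.7 CPM in control and 4051 ± 153 CPM in RGX-104, or 98.9% of control. The 17 regulatory particle genes summed to 6425 ± 191 CPM in control and 6413 ± 154 CPM in RGX-104, or 99.8% of control. Psmb10 stood at 92.5% of control, with the wider interval given above. Summed levels of all 8 subgroups overlapped between control and RGX-104 libraries. The medians of the log2 fold changes were -0.03 for the core, -0.02 for the regulatory particle, 0.03 for the 5 activator and inhibitor genes and 0.06 for the 3 core assembly factors.

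Libraries of both groups differed among themselves by more than the group means did. The sum over the 41 genes was 11841, 11911, 12258 and 12528 CPM in RGX-104 replicates 5 to 8 and 12339, 12118, 12262 and 11936 CPM in control replicates 1 to 4. Replicate 8 had the highest sum of all libraries and replicate 5 the lowest. Of the 41 genes, 17 to 24 lay above their control mean in each RGX-104 library (17 in replicate 5, 24 in replicate 8) and 17 to 23 in each control library. The coefficient of variation had a median of 5.75% in control and 5.54% in RGX-104, and it was larger in RGX-104 for 19 of the 41 genes.

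**Figure D4:**
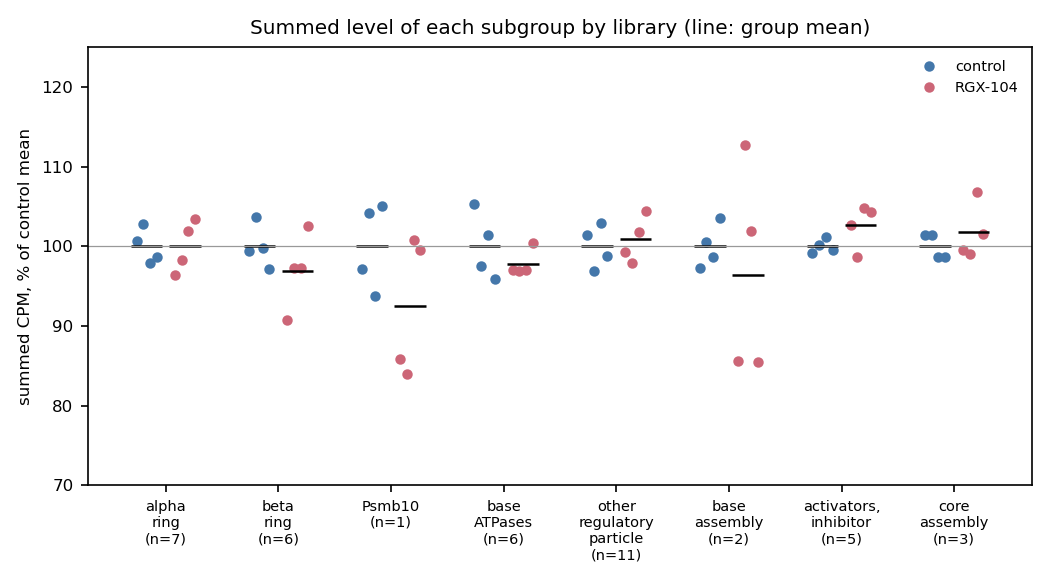
Summed CPM of each subgroup as a percentage of its control mean (y axis, which does not start at 0) in control (blue) and RGX-104 (red) libraries, with group means as lines and the number of tested genes under each name. Every subgroup overlaps between the groups, and the widest scatter is in the 2 base assembly genes of the RGX-104 libraries.

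Other genes of the pathway were read from a fixed list of 46 symbols, of which 36 were tested. Of these 36, edgeR called 1 higher and 1 lower, and the median log2 fold change was 0.02. Nfe2l1 encodes a membrane-bound transcription factor that raises proteasome genes when the proteasome is inhibited (chromosome 11, 96817414 to 96829968). It was at 103, 91.0, 97.8 and 84.2 CPM in control and at 79.5, 73.9, 69.2 and 76.4 CPM in RGX-104. All RGX-104 libraries lay below all control libraries. It fell by 0.33 on the log2 scale (SE 0.08, 95% interval -0.49 to -0.17; edgeR adjusted p = 0.0213).

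The call of Nfe2l1 was lost on leaving out control replicate 1 (adjusted p = 0.0985) or 3 (0.0884), or RGX-104 replicate 6 (0.0705), 7 (0.0824) or 8 (0.0528). Its log2 fold change stayed between -0.38 and -0.28 in these fits and the others that left out a library. Ddi2 and Ngly1, which encode the protease and the deglycosylase that release the factor from the membrane, were at 2.27 and 10.4 CPM in RGX-104, with log2 fold changes of -0.66 ± 0.43 and 0.03 ± 0.20. Nfe2l2, which encodes a related factor of the oxidative stress response, had a log2 fold change of -0.05 ± 0.07.

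Proteasome partners did not differ by the test, with 0 of 11 called by edgeR or DESeq2 and 0 at an unadjusted p under 0.05. Pomp, the maturation chaperone of the core (chromosome 5, 147860628 to 147875784), was at 513, 497, 494 and 480.1 CPM in control and at 506, 489, 545 and 503 CPM in RGX-104. Adrm1, a ubiquitin receptor of the regulatory particle (chromosome 2, 180171588 to 180176283), was at 76.3, 85.8, 77.4 and 76.6 CPM in control and at 84.2, 69.0, 85.8 and 83.7 CPM in RGX-104. Their log2 fold changes were 0.04 ± 0.05 and 0.03 ± 0.08. None of the 7 tested shuttle and segregase genes was called by edgeR or DESeq2, with 1 at an unadjusted p under 0.05. Vcp, the segregase that extracts substrates for the proteasome, had a log2 fold change of -0.01 ± 0.04.

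In the list of peptide loading genes and their regulators, 8 of 13 could be tested and edgeR called 1 higher. Calr, a chaperone of MHC class I folding in the endoplasmic reticulum (chromosome 8, 84842088 to 84846931), was at 1188, 1119, 1213 and 1153 CPM in control and at 1355, 1313, 1316 and 1335 CPM in RGX-104. All RGX-104 libraries lay above all control libraries (means 1168 ± 41.0 and 1329.9 ± 19.6 CPM, SD, n = 4 per group), and the log2 fold change was 0.19 ± 0.04 (edgeR adjusted p = 0.00954). Tap1 and Tap2, the peptide transporter genes that neighbour Psmb9 and Psmb8 on chromosome 17, were listed at 0 with repeated symbols, as were Tapbp and H2-D1.

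Irf1, which encodes an interferon-linked factor that acts on immunoproteasome genes (chromosome 11, 53770014 to 53778374), was at 149, 136, 137 and 131 CPM in control and at 131, 139, 145 and 137 CPM in RGX-104. The groups overlapped widely, and exons of Irf1 overlap those of Gm17334. Its log2 fold change was -0.01 ± 0.06, with an edgeR adjusted p of 0.981.

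**Figure D5:**
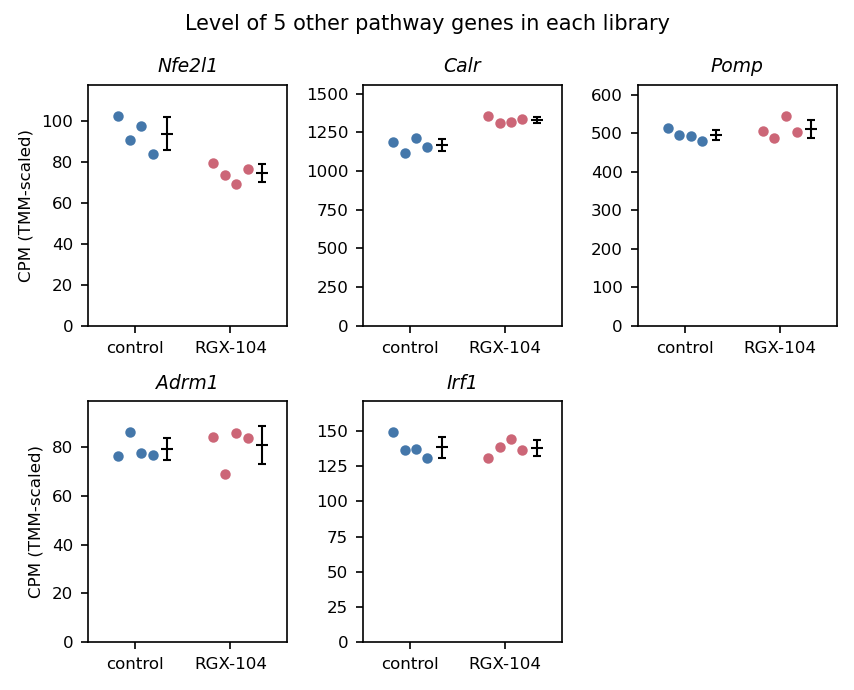
CPM (y axis, from 0) of 5 pathway genes without a Psm symbol in control (blue) and RGX-104 (red) libraries. The mean and SD of each group are in black. Nfe2l1 is lower and Calr higher in every RGX-104 library, and Pomp, Adrm1 and Irf1 overlap.

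The factor encoded by Nfe2l1 binds antioxidant response elements, and the promoters of the proteasome genes were searched for a core of that element. RefSeq promoter windows of GRCm38.p6, from 250 bases before to 50 bases after the start site, were matched for 41 of the 49 Psm symbols that encode proteasome genes. Psmb2 was not among them. The motif TGACNNNGC, searched on both strands, was in the windows of 6 of the 41 matched genes (14.6%), against 13.99% of 27025 genes with a window. The matches in 5 tested genes are shown 5′ to 3′ on the gene's strand with up to 15 bases on each side, the motif in capitals, because they include the regulatory particle genes Psmc6 and Psmd12 described above.
Psmb5, chr14:54618019-54618057, minus strand: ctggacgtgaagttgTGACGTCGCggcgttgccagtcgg
Psmc6, chr14:45329582-45329620, plus strand: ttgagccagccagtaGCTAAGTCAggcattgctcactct
Psmd12, chr11:107479278-107479304, plus strand: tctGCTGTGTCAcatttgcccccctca
Psmd9, chr5:123228144-123228182, plus strand: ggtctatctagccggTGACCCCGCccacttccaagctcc
Psme4, chr11:30771753-30771776, plus strand: cccggcgctgcggctGCAGCGTCA
The genes with these letters moved to both sides of 0. Psmc6 and Psmd9 had log2 fold changes of -0.13 and -0.12, and Psmd12, Psmb5 and Psme4 had 0.14, 0.06 and 0.03, none of them called. The median log2 fold change was 0.03 for these 5 genes and 0.01 for the 29 tested genes with a window that lacks the motif. A match of letters shows neither binding nor use of the site.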

How the data were processed

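RNA of 8 sorted T cell samples was sequenced from Lexogen 3′ FWD libraries, per the labels' protocols. The authors deposited 1 table of raw read counts, as whole numbers. Per the submitters' processing notes, the tools were STAR 2.7.8a, DESeq2 1.4 and R 4.1.0, with GRCm38 as the build. How reads were assigned to genes (program, strand, reads with several matches, annotation) is not given in the sources used here. Columns were matched to samples by number and group word in the titles (0 columns belonged to another series).

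The two-sided edgeR quasi-likelihood test (edgeR 4.0.16, R 4.3.3 with glmQLFit, glmQLFTest) compared the groups after filterByExpr and TMM, with no other term in the model. This left 12162 genes. Standard errors were the log2 fold change divided by the square root of F, and 95% intervals used the fit's degrees of freedom. The biological coefficient of variation was 14.5%. The code was tested on simulated data. Alternatives were DESeq2 1.42.0, other scalings and filters, summing of repeated symbols and leaving out each library.

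Genes named with values in every library were the called ones, Psmb8 to Psmb10 with their counterparts, Psme1 and Psme2, the smallest p in each subgroup, and the 3 largest log2 fold changes each way. Pathway genes so named were the called ones and Pomp, Adrm1, Nfe2l1, Tap1, Tap2 and Irf1. Some genes of the list are not reported here. Psmc3 and Psmd2 and other named genes were added after their values were seen. The members, lists and rules were chosen with earlier results of these data known. Coordinates and promoters come from RefSeq tables of GRCm38.p6. In GENCODE M21, 8 of the 41 tested proteasome genes share 100 bp or more of exon with a neighbour, such as Psmb7 with Nek6 (405 bp, opposite strand) and Psmd9 with Gm26745 (1849 bp, opposite strand). Psmg3 overlaps Gm26938 on the same strand (280.0 bp). Reads of such pairs may not be separable. Without molecular identifiers, counting precision covers counting error only.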

Additional observations from a re-analysis of the deposited data

Results flagged for a closer look

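In 9 of 128 sets of 4 libraries screened (each value above in each group), 1 library lay far from the other 3 by Dixon's criterion at its 95% critical value. Chance alone marks about 1 in 20 such sets. Among RGX-104 libraries, Psmb2 was at 84.4 CPM in replicate 7 against 93.6 to 95.4 in the others, and Psmb5 was at 50.6 CPM in the same replicate against 58.5 to 59.2. Psme4 was at 119.9 CPM in RGX-104 replicate 8 against 138 to 141, while the summed base ATPases were at 2239 CPM there against 2160.3 to 2162. Adrm1 was at 69.0 CPM in RGX-104 replicate 6 against 83.7 to 85.8. In control, replicate 2 held the highest Psma2 (677 CPM against 581 to 595) and the highest Adrm1 (85.8 CPM against 76.3 to 77.4). Control replicate 3 had the lowest Psmc3ip (20.9 CPM against 27.3 to 27.9), and control replicate 4 the highest sum of CD8 T cell markers (1841 CPM against 1799 to 1806).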

How the results depend on the processing

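The count of proteasome genes called was 1 in edgeR with RLE factors, with library totals only, without an expression filter, with the filter of 10 counts in 4 columns and with repeated symbols summed. In each of these the called gene was Psmb2. DESeq2 called 2, both lower, and 190 genes higher over the whole table against 108 in edgeR. Leaving out single libraries gave 0 to 1 proteasome genes called, all lower, and 202 to 303 genes called over the table, 57 to 93 of them higher and 144 to 211 lower. Scaling moved the median log2 fold change of all genes to no more than 0.01. On leaving out single libraries, 12 of the 43 proteasome rows changed sign at least once, none of them called in any fit. Their largest absolute log2 fold change in the full fit was 0.0317, for Psma3. None of the 43 changed sign under the other alternatives. Among genes given with values in every library, Psmb7 and Psme1 changed sign, as did the pathway genes Irf1 and Adrm1. Psmb7 ran from -0.0578 to 0.0253 (log2), with 0.00471 without control replicate 4 and 0.0110 without RGX-104 replicate 5. Irf1 ran from -0.0315 to 0.0313, with 0.0190 without RGX-104 replicate 5. Psme1 ran from -0.0538 to 0.0143 and Adrm1 from -0.00180 to 0.0978. The cause of these shifts was not tested. No paired analysis was possible because the groups share no replicate numbers. Depth limits Psma8, while the 6 genes at 0 with repeated symbols cannot be read from this table at any depth.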

Other observations

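Further promoter letters were counted in the same windows. A core of interferon response elements, GAAA followed after 2 bases by GAAA, was in 5 of the 41 matched proteasome genes (12.2%, namely Psmb3, Psmd4, Psmd9, Psme1 and Psmg4), against 3.99% of all genes with a window. All 5 were tested, 3 had a negative log2 fold change, and their median was -0.03. The ideal direct repeat of the kind liver X receptors bind, AGGTCA followed after 4 bases by AGGTCA, was in 0 of the 41 and in 4 of 27025 genes. Both motifs were searched on both strands, and no match says only that these letters are not in the window.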
